A study of Mus musculus with 12 samples.

Results

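Many genes of lung tumour tissue differed between arrays labelled smoke and air by unequal amounts in p65-deficient and wild type hosts. The difference between smoke and air arrays is called the smoke change, also where smoke is said to raise or lower a gene. How much of it goes with the lung content or the labelling of the samples was not tested. The measure was the interaction of smoke and host genotype, the smoke change in p65-deficient hosts minus the smoke change in wild type hosts on the log2 scale. A positive value means a higher smoke change in the deficient hosts. All 12 arrays of the study entered the interaction, and 2909 of the 19937 genes tested had an interaction past the test (14.6%). Called genes included Cyp1a1 and other genes induced through the aryl hydrocarbon receptor, genes of lung epithelium, vessels, fibroblasts and muscle, macrophage genes, neutrophil chemokines, interferon-gamma induced genes and genes of hypoxia and glycolysis.

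The tissue was labelled as Lewis lung carcinoma, a transplantable mouse tumour line, resected from the lungs of female C57BL/6 mice, and its source as lung. The 4 groups of 3 arrays each were hosts labelled P65 KO and exposed to smoke (KO smoke), P65 KO hosts exposed to air (KO air), wild type hosts exposed to smoke (WT smoke) and wild type hosts exposed to air (WT air). The labels describe the KO hosts as deficient in RelA/p65, the title of the study places that deficiency in myeloid cells, and neither the driver of the deletion, the age of the mice, the kind of smoke nor its duration was given in the sources used here. Nothing in the labels says whether replicates were separate animals, and the p-values below speak only of the variation among these arrays, part of which may be technical. The small number of arrays limits all precision.

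RelA/p65 is the main transactivating subunit of the transcription factor NF-kB, which drives chemokines, cytokines, adhesion molecules and its own inhibitors in macrophages, neutrophils, endothelium and epithelium. Tobacco smoke carries aromatic hydrocarbons that bind the aryl hydrocarbon receptor (AhR), which then induces cytochromes P450 such as Cyp1a1 in lung epithelium and endothelium, and it carries oxidants that activate NRF2, the regulator of glutathione enzymes. In tumours, macrophages are a main source of chemokines and arginase, and interferon-gamma from lymphocytes induces guanylate-binding proteins and antigen presentation genes.

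Several measured facts bear on the labels and stand before the results. Rela, which encodes p65, had levels of 9.30, 9.37 and 9.27 in KO smoke and 9.45, 9.44 and 9.38 in KO air, against 9.04, 9.01 and 9.19 in WT smoke and 9.25, 9.16 and 9.26 in WT air, so it was not lower in the arrays labelled deficient, and its interaction was 0.03 ± 0.09 (adjusted p = 0.84). These are levels of whole tissue, while the title places the deficiency in myeloid cells, so they cannot decide the genotype label. Which cells the Rela signal came from, and whether its probe set covers the deleted part, was not tested. Cyp1a1, a gene that smoke induces in lung, was highest in KO smoke but lower in WT smoke than in WT air, so the arrays labelled WT smoke did not show the change that this exposure marker is known for. The WT smoke arrays also stood apart in lung markers: the mean log2 level of 16 club and secretory cell genes was 11.46 to 11.60 in KO smoke and 11.47 to 11.52 in KO air, against 6.93 to 7.07 in WT smoke and 10.46 to 10.72 in WT air. Mitotic genes ran the other way, with a mean over 34 genes of 8.17 to 8.71 in KO smoke and 8.32 to 8.51 in KO air, against 9.77 to 9.92 in WT smoke and 9.40 to 9.59 in WT air. Surfactant gene Sftpc read between 12.24 and 14.15 in the 12 arrays, so every sample held RNA of lung epithelium beside that of tumour. WT air replicate 1 was above the other WT air arrays in interferon genes (7.93 against 7.30 and 7.37 for the mean of 33 antiviral genes). In mitotic genes replicate 1 was the highest array of every group. It stood at 8.71 against 8.17 and 8.29 in KO smoke, and at 8.51 against 8.32 and 8.33 in KO air. In WT smoke it stood at 9.92 against 9.82 and 9.77, and in WT air at 9.59 against 9.40 and 9.45. DNA replication genes also had replicate 1 highest in every group. Lung and mitotic gene levels thus moved with the groups, and their part in the results was not tested. In bulk tissue, fewer cells of a type and less RNA per cell cannot be told apart.

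Of the 2909 genes called, 1773 had a higher smoke change in KO (8.89% of all genes) and 1136 a lower one (5.7%). The higher ones were larger, with a median of 0.75 and 186 genes at 2 log2 units or more, against a median of -0.52 and 11 genes of that size among the lower ones. The median interaction over all genes was -0.08. The split between directions depended on the scale: 60.9% of the called genes were higher with the values as deposited, 53.2% after quantile normalization over genes and 41.4% with each array centred on its median. At the limit of the test, Lyz2 was just inside at 0.43 (adjusted p = 0.04997) and Cdip1 just outside at 0.30 (adjusted p = 0.05001).

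The smoke change of each genotype, from the same fit, sorted the called genes into patterns. In KO hosts smoke raised 138 genes (0.692%) and lowered 343 (1.72%), and in WT hosts it raised 2991 (15%) and lowered 2787 (14%). Most called genes had a called change in WT and no called change in KO. Of the called genes, 1576 (54.2%) fell in WT and were not called in KO, and 848 (29.2%) rose in WT and were not called in KO. Below, "in WT alone" and "in KO alone" mean called in that genotype and not called in the other. A missing call does not show an absent change. Each genotype was adjusted by itself, and with fewer calls in KO the bar was stricter there. Epsti1 changed by -0.38 ± 0.11 in KO, not called, and by 0.36 ± 0.11 in WT, called. The part of this unequal bar in the counts was not tested. Opposite changes were called for 120 genes, of which 71 fell in KO and rose in WT and 49 rose in KO and fell in WT. A further 136 changed with smoke in KO and were not called in WT, 97 of them lower and 39 higher. Both genotypes fell by unequal amounts in 60 genes, both rose in 10, and 159 had neither change called. Single arrays moved some of these counts. Without WT smoke replicate 1, 4969 genes were called, 2631 of them lower, and 2225 rose in WT alone. The lower calls numbered 756 without KO smoke replicate 2, 725 without KO air replicate 1 and 757 without WT air replicate 3, and the genes that rose in WT alone numbered 559, 553 and 497 in these 3 settings. Opposite changes numbered between 61 and 73 when any 1 KO array was left out, and genes that changed in KO alone numbered 87 without KO smoke replicate 3.

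**Figure D1:**
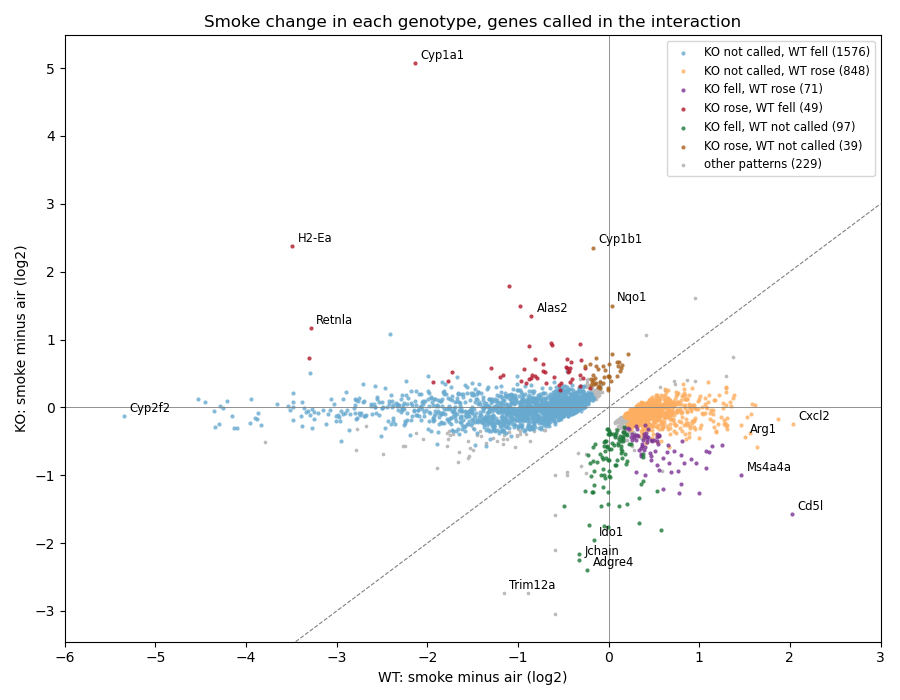
Each point is 1 of the 2909 genes called in the interaction, with its smoke minus air difference in WT on the x axis and in KO on the y axis (log2), coloured by pattern. The dashed line marks equal changes in both genotypes. The cloud lies along the x axis, with Cyp2f2 at -5.35 in WT and -0.13 in KO, while Cyp1a1 stands alone at 5.08 in KO and -2.13 in WT.

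Of 8 measured AhR target genes, 4 rose with smoke in KO tissue, and none of those 4 rose in WT tissue. Over all genes 0.692% rose in KO and 15% rose in WT. In the interaction 5 of the 8 were called higher, 62.5% of the list against 8.89% of all genes, and 2 were called lower, 25% against 5.7%. The lower count was 1 in 13 of the 19 other settings run on genes, among them 10 of the 12 that left out 1 array, every one except those without KO smoke replicate 2 and without WT smoke replicate 1. The list's median interaction was 1.97, with median smoke changes of 0.77 in KO and -0.07 in WT. Cyp1a1, the P450 that oxidizes aromatic hydrocarbons and the best known AhR target, had log2 levels of 11.46, 11.54 and 11.63 in KO smoke and 6.56, 6.54 and 6.30 in KO air, against 5.52, 5.67 and 5.77 in WT smoke and 7.68, 7.71 and 7.97 in WT air. The KO smoke arrays were far above all others, the WT smoke arrays were the lowest, and no group overlapped another. Its smoke change was 5.08 ± 0.10 in KO (adjusted p = 6.6e-12) and -2.13 ± 0.10 in WT (adjusted p = 2.19e-09), which is 33.7-fold higher with smoke in KO and 4.39-fold lower in WT, and the interaction of 7.21 ± 0.14 (adjusted p = 6.24e-12) was the highest of all called genes.

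Cyp1b1, a second hydrocarbon-oxidizing P450 under AhR control, read 9.17, 9.41 and 9.39 in KO smoke and 6.87, 7.07 and 6.97 in KO air, against 6.73, 6.55 and 6.86 in WT smoke and 6.77, 7.07 and 6.83 in WT air. KO smoke stood out and the other 3 groups lay between 6.55 and 7.07, and the interaction was 2.53 ± 0.15 (adjusted p = 4.36e-08) with smoke changes of 2.35 in KO and -0.18 in WT. The aldehyde dehydrogenase Aldh3a1 rose by 1.50 in KO and fell by 0.97 in WT, an interaction of 2.47 ± 0.19 (adjusted p = 6.89e-07). Nqo1, the quinone reductase that both AhR and NRF2 induce, read 8.27, 8.24 and 8.23 in KO smoke and 6.90, 6.61 and 6.74 in KO air, against 8.11, 7.73 and 7.82 in WT smoke and 7.76, 7.92 and 7.88 in WT air. Here KO air was the low group and the WT groups lay between it and KO smoke, and the interaction was 1.47 ± 0.14 (adjusted p = 5.76e-06). Lrat, which esterifies retinol and was counted with this list, had an interaction of 2.46 made by a fall of 2.95 in WT, and its KO change of -0.49 was not called. Cyp1a2, another AhR-induced P450, and Tiparp, an ADP-ribosyltransferase that feeds back on AhR, went the other way: both rose in WT and were not called in KO, with interactions of -0.34 and -0.57. The Cyp1a2 call was lost in 13 of 20 other settings, among them all that left out 1 array except KO smoke replicate 2. Ahrr, the AhR repressor, was not called (-0.32 ± 0.19 (adjusted p = 0.293)).

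The promoter sequences of the 2 P450 genes with the widest AhR-type response are shown because each holds the core of the xenobiotic response element, GCGTG on either strand, within the 250 bases before the start. They come from RefSeq on build GRCm38.p6, the Cyp1a1 stretch at chr9:57697363-57697612 on the plus strand and the Cyp1b1 stretch at chr17:79715062-79715311 on the minus strand. Both read 5′ to 3′ toward the gene, with the core in capitals, 54 bases before the start on the given strand in Cyp1a1 and 76 bases before it on the opposite strand in Cyp1b1.
Cyp1a1: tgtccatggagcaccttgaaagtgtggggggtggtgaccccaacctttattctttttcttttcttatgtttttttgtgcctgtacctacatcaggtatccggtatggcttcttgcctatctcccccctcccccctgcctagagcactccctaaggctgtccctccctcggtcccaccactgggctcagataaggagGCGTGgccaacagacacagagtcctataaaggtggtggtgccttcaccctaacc
Cyp1b1: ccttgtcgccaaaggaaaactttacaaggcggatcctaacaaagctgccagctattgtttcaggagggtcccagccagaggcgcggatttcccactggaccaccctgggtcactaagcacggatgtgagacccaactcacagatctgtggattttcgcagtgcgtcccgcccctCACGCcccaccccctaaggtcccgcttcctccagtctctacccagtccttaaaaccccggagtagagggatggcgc
The core is short and frequent: 44.4% of the 15613 tested genes with a promoter in the table held it in the 300 bases around the start (250 before and 50 after), as did 50.6% of the genes called higher and 40.7% of those called lower. Of the 6 called AhR list genes with a promoter, 4 held it. It was also in 5 of the 5 called MHC class I and immunoproteasome genes with a promoter. Of these, Tap1 and Psmb9 have overlapping promoters on opposite strands, so the same matches were counted for both. Among the other called lists it was in 2 of 6 interferon-gamma genes, 4 of 12 inflammatory targets and 4 of 13 chemokines. Genes with the pattern of Cyp1a1, a rise in KO and a fall in WT, held it in 12 of 33 (36.4%), below all promoters. Those with the pattern of Cyp1b1, a rise in KO and no call in WT, held it in 14 of 28. A match is a description of the letters and not a site of binding.

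NRF2 genes had called members in both directions. Of 20 measured, 6 were called higher (30% against 8.89% of all genes) and 2 lower (10% against 5.7%), and the median interaction was 0.01, a value whose sign turned under 5 of the other settings, median centring among them (-0.06). Gclc, the catalytic subunit for glutathione synthesis, had levels of 10.64, 10.80 and 10.73 in KO smoke and 10.19, 10.14 and 10.06 in KO air, against 9.45, 9.46 and 9.48 in WT smoke and 9.95, 9.89 and 9.95 in WT air. Its groups did not overlap, with KO smoke the highest and WT smoke the lowest, and smoke changes of 0.59 in KO and -0.47 in WT were both called. Cbr3, a carbonyl reductase, behaved alike with 0.58 in KO and -0.43 in WT, and the glutathione peroxidase Gpx2 also rose in KO and fell in WT. The glutathione transferases Gsta3 and Gsta4 had interactions of 3.55 ± 0.13 (adjusted p = 8.49e-10) and 1.81, but their KO changes were 0.02 and 0.13, not called, while in WT they fell by 3.53 and 1.68. Hmox1, the haem oxygenase that NRF2 also induces, went against these genes: it rose by 1.28 in WT, was not called in KO at -0.25 and had an interaction of -1.53 ± 0.19 (adjusted p = 6.88e-05). Gsr, glutathione reductase, was lower in the interaction too.

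**Figure D2:**
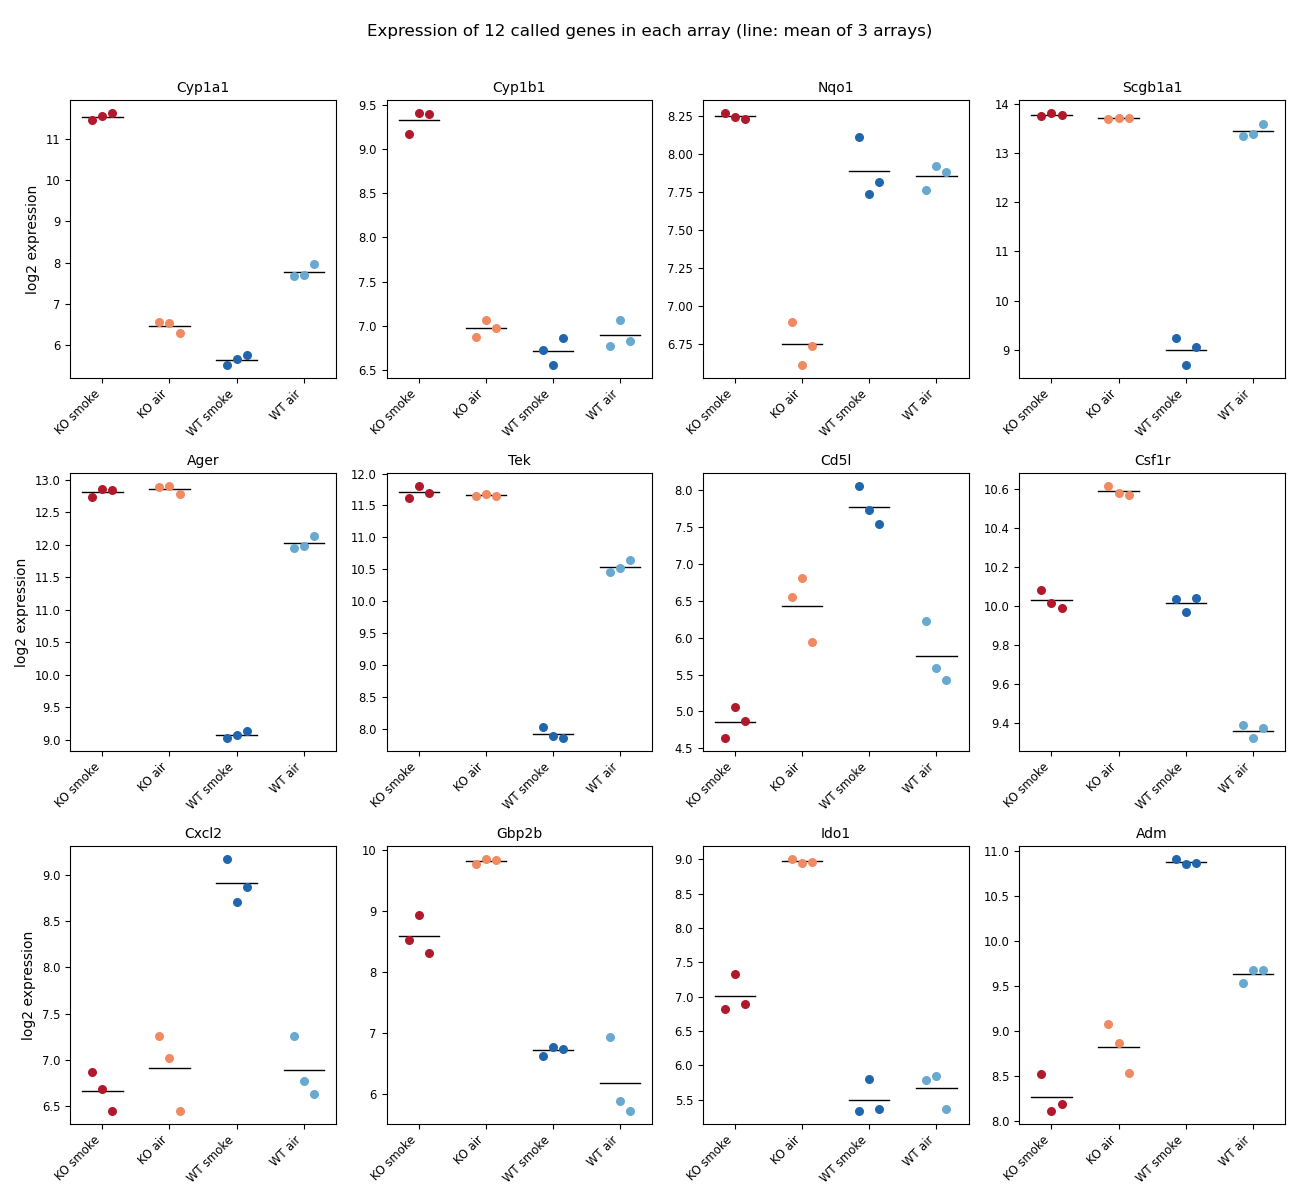
The log2 expression of 12 called genes is plotted for each array, with 3 arrays per group and a line at their mean. Cyp1a1, Cyp1b1 and Nqo1 are high in KO smoke relative to KO air, Scgb1a1, Ager and Tek are low in WT smoke alone, Cd5l, Cxcl2 and Adm are high in WT smoke, and Gbp2b and Ido1 are highest in KO air.

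Genes of airway and alveolar epithelium were among the highest interactions, and these came from a fall with smoke in WT that was not called in KO. All 16 measured club and secretory cell genes were called higher in the interaction, against 8.89% of all genes, with a median of 3.73 and median smoke changes of 0.02 in KO and -3.48 in WT. Cyp2f2, a P450 of club cells, read 13.13, 13.25 and 13.17 in KO smoke and 13.29, 13.35 and 13.31 in KO air, against 7.42, 7.25 and 7.18 in WT smoke and 12.53, 12.60 and 12.77 in WT air. The KO groups and WT air lay between 12.53 and 13.35 and the 3 WT smoke arrays between 7.18 and 7.42, and the interaction was 5.22 ± 0.11 (adjusted p = 1.24e-11), 37.2-fold. Scgb1a1, the secretoglobin that defines club cells, read 13.76, 13.82 and 13.78 in KO smoke and 13.69, 13.72 and 13.72 in KO air, against 9.23, 8.69 and 9.06 in WT smoke and 13.35, 13.40 and 13.60 in WT air. WT smoke was again the only low group, and the interaction was 4.53 ± 0.16 (adjusted p = 6.47e-10). The carboxylesterase Ces1d, the retinal dehydrogenase Aldh1a1 and its relative Aldh1a7, the flavin monooxygenases Fmo2 and Fmo1 and the secreted protein Bpifb1 had interactions of 4.66, 4.30, 4.31, 4.30, 4.07 and 3.78, each with a KO change between -0.09 and 0.13 that was not called.

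One secretory gene differed from the other 15 in that its KO change was also called. Scgb3a1, a secretoglobin of airway secretory cells, read 10.97, 11.10 and 11.03 in KO smoke and 10.31, 10.39 and 10.22 in KO air, against 6.18, 6.42 and 6.56 in WT smoke and 9.52, 9.75 and 9.83 in WT air. Its KO smoke arrays were above the KO air arrays and its WT smoke arrays far below WT air, with smoke changes of 0.73 ± 0.10 in KO (adjusted p = 0.00128) and -3.31 ± 0.10 in WT (adjusted p = 4.14e-11) and an interaction of 4.04 ± 0.14 (adjusted p = 6.68e-10).

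Type II alveolar cells, which make surfactant, had 17 of 17 measured markers called higher (100% against 8.89% of all genes) with a median of 2.10, and type I cells, the thin gas exchange surface, had 13 of 14 (92.9%) with a median of 1.78. The surfactant proteins Sftpb and Sftpa1 had interactions of 2.79 and 2.49, and the chitinase-like Chil1 and the secreted Egfl6 2.59 and 2.04. Sftpc, the surfactant protein that defines type II cells, read 14.04, 14.09 and 14.06 in KO smoke and 14.07, 14.13 and 14.15 in KO air, against 12.39, 12.30 and 12.24 in WT smoke and 13.85, 13.87 and 13.96 in WT air. WT smoke lay below all the other arrays, and the interaction was 1.53 ± 0.09 (adjusted p = 4.13e-08). Abca3, the surfactant lipid transporter, was the 1 type II gene that also rose in KO. For type I cells, the receptor Ager read 12.73, 12.85 and 12.83 in KO smoke and 12.88, 12.90 and 12.77 in KO air, against 9.02, 9.07 and 9.13 in WT smoke and 11.95, 11.98 and 12.13 in WT air, with KO smoke and KO air overlapping and WT smoke 2.95 below WT air, and its interaction was 2.90 ± 0.10 (adjusted p = 5.68e-10). The kinase anchor Akap5, the chloride channel protein Clic5 and the receptor Gprc5a followed with 3.45, 3.08 and 2.41.

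Ciliated cell genes moved less, from a lower level. In WT air the list mean was 10.46 to 10.72 for club and secretory genes. For ciliated genes it was 7.15 to 7.32 in WT air and 6.25 to 6.49 in WT smoke, and the part of this low range was not tested. Of 14 measured, 9 were called higher (64.3% against 8.89% of all genes) and 0 lower (0% against 5.7%), with a median of 0.61, and the 9 all fell in WT and were not called in KO. That pattern held for 1576 of all 1773 genes called higher. The microtubule protein Tppp3 had an interaction of 1.76 ± 0.11 (adjusted p = 1.39e-07), and the axonemal genes Dnah5, Dynlrb2 and Spag6l 1.05, 1.11 and 1.16. Among epithelial junction and keratin genes, which tumours of epithelial origin can share with lung, 16 of 23 were called higher (69.6% against 8.89%) and 1 lower (4.35% against 5.7%), with a median of 0.86. The lung claudin Cldn18 had 3.12, E-cadherin Cdh1 2.64, and the keratins Krt19 and Krt7 3.18 and 1.98, all by a fall in WT, while Krt18 rose in WT and was called lower. The Krt18 call was lost without KO smoke replicate 2 or 3, KO air replicate 1 or 2, WT smoke replicate 2 or WT air replicate 3.

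Vessel and connective tissue genes of the lung followed the epithelium. Of 27 endothelial markers 23 were called higher (85.2% against 8.89% of all genes) and 1 lower (3.7% against 5.7%), with a median of 0.94, and the mean level of the list was 10.44 to 10.58 in KO smoke and 10.50 to 10.53 in KO air, against 8.40 to 8.49 in WT smoke and 9.58 to 9.73 in WT air. Tek, the angiopoietin receptor, read 11.62, 11.81 and 11.70 in KO smoke and 11.65, 11.68 and 11.66 in KO air, against 8.03, 7.89 and 7.86 in WT smoke and 10.46, 10.52 and 10.65 in WT air. The KO groups overlapped, WT air was below them and WT smoke fell by a further 2.62, which gave an interaction of 2.66 ± 0.10 (adjusted p = 1.57e-09). Tmem100, a membrane protein of lung endothelium, and Car4, the carbonic anhydrase of capillaries, had interactions of 4.06 and 3.58 by a WT fall. Ptprb, the endothelial phosphatase that acts on Tek, was among 3 endothelial genes with opposite called changes (0.38 ± 0.08 in KO (adjusted p = 0.0196) and -1.77 ± 0.08 in WT (adjusted p = 1.34e-09)), with Aplnr and Vwf. Apln, the ligand of Aplnr, was the 1 gene of the list called lower, and it rose in WT. Without WT smoke replicate 1, 2 endothelial genes were called lower.

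Vegfa, the endothelial growth factor that alveolar cells also make, moved with the lung genes. Its levels were 11.52, 11.68 and 11.64 in KO smoke and 11.63, 11.64 and 11.56 in KO air, against 9.71, 9.77 and 9.70 in WT smoke and 10.94, 10.94 and 11.11 in WT air, with the KO groups overlapping and WT smoke the lowest, and its interaction was 1.27 ± 0.10 (adjusted p = 7.86e-07).

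Resident lung fibroblast markers were called higher in 13 of 18 (72.2% against 8.89% of all genes) and lower in 1 (5.56% against 5.7%), with a median of 1.09. The lower count was 0 without KO smoke replicate 1 or 2, KO air replicate 3 or WT air replicate 1, and 2 without KO air replicate 1. The matrix ligand Npnt, the methyltransferase Inmt, the integrin Itga8 and the glypican Gpc3 had interactions of 3.49, 3.73, 2.85 and 2.80, and Scn7a, a sodium channel gene outside the lists, had 4.24. Smooth and cardiac muscle markers, which in mouse lung include the cardiac muscle of pulmonary veins, had 11 of 20 higher (55%) and 2 lower (10%), with Myl7 at 3.18, Actc1 at 2.55, Myh6 at 2.24 and Myh11 at 1.91. Acta2 and Smtn were the 2 lower members and rose in WT.

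Collagen and tumour stroma genes did not share a direction: 9 of 25 were called higher (36% against 8.89% of all genes) and 4 lower (16% against 5.7%), with a median of -0.11. The gelatinase Mmp2, the proteinase inhibitor Timp3, the matrix protein Postn and the collagen Col1a2 were higher at 2.41, 2.63, 2.84 and 1.01, all by a fall in WT. Col1a1, Fap and Mmp12 rose in WT and were called lower. Lrrc15, a marker of tumour-associated fibroblasts, read 6.94, 6.09 and 6.92 in KO smoke and 6.84, 7.10 and 7.12 in KO air, against 9.47, 9.23 and 9.37 in WT smoke and 8.0, 7.77 and 7.61 in WT air. Its WT smoke arrays were the highest and its KO groups overlapped, with an interaction of -1.93 ± 0.27 (adjusted p = 0.000184). The lower stroma genes numbered 7 without WT air replicate 1, and 2 without KO smoke replicate 2 or 3, any 1 KO air array or WT air replicate 2 or 3. The Mmp12 call was lost in 8 of the 12 settings that left out 1 array. The share of these epithelial, vascular and stromal interactions that goes with the amount of normal lung in each sample was not tested.

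**Figure D3:**
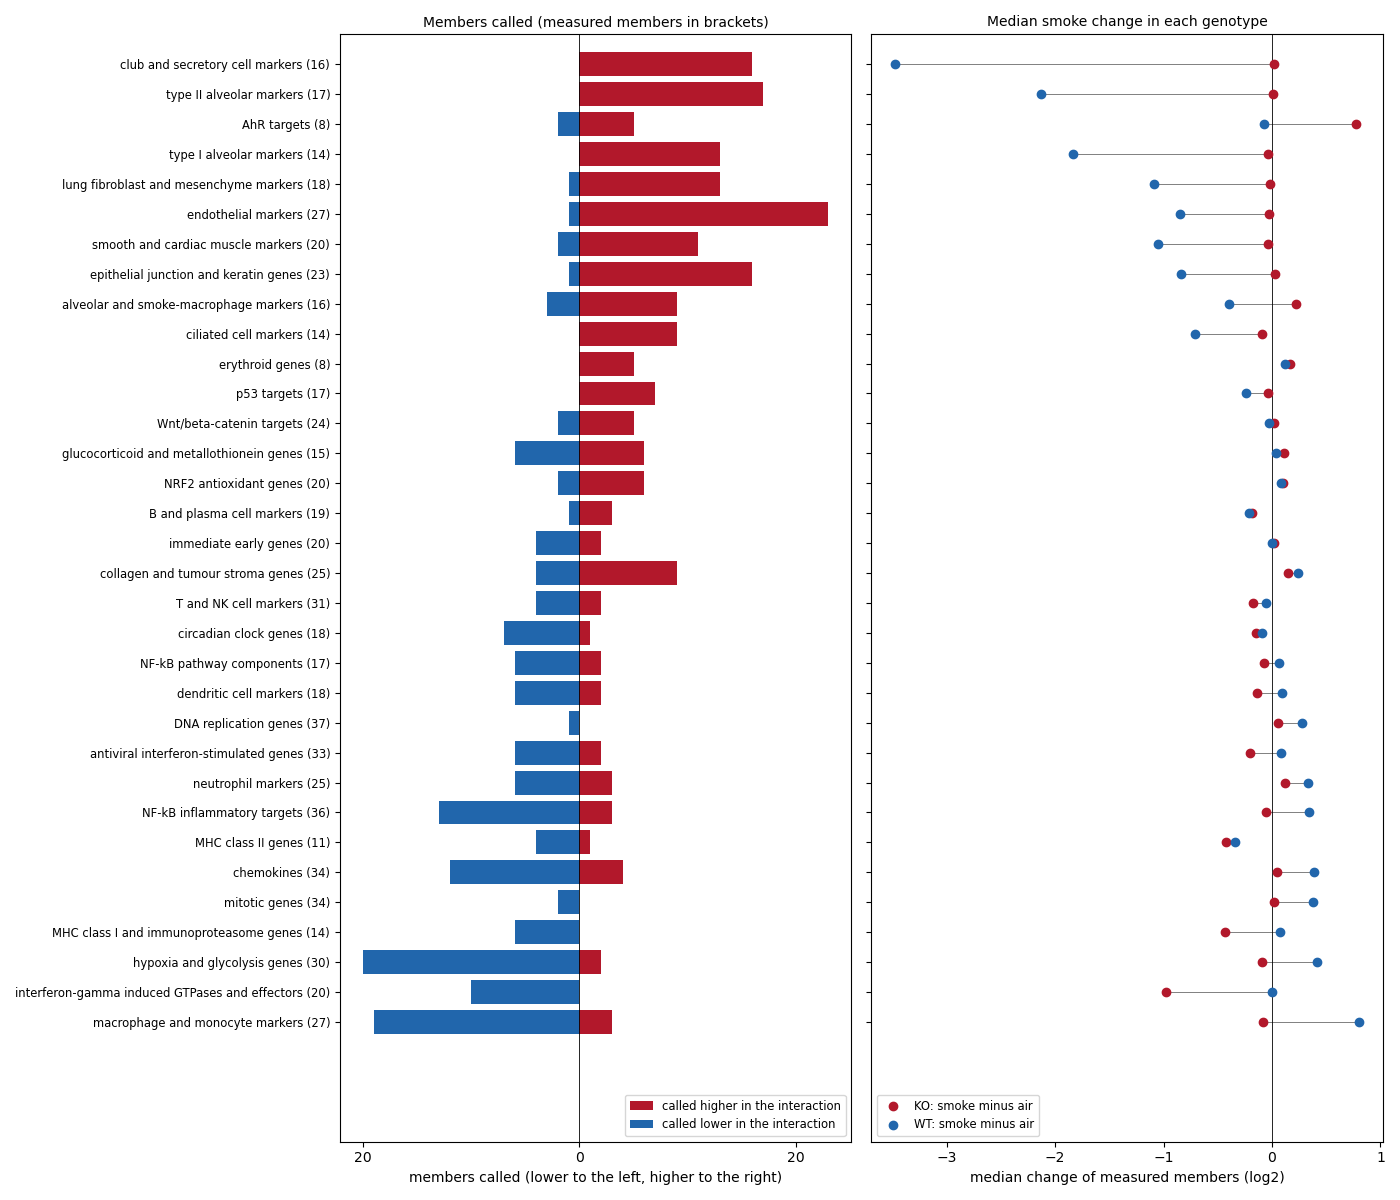
The left panel counts the members of each gene list called higher (red, to the right) or lower (blue, to the left) in the interaction, and the right panel gives the median smoke change of the measured members in KO (red) and WT (blue), in log2 units. Lung cell lists have KO medians near 0 and WT medians between -0.71 and -3.48, macrophage and hypoxia lists have WT medians of 0.81 and 0.42, and the interferon-gamma list has a KO median of -0.98 beside a WT median of 0.00.

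Macrophage and monocyte genes had a lower smoke change in KO, mainly through a rise in WT. Of 27 measured, 19 were called lower (70.4% against 5.7% of all genes) and 3 higher (11.1% against 8.89%), with a median of -0.98 and median smoke changes of -0.08 in KO and 0.81 in WT. The mean level of the list was 9.41 to 9.50 in KO smoke and 9.57 to 9.64 in KO air, against 9.39 to 9.58 in WT smoke and 8.76 to 9.06 in WT air, so WT air was the low group. Of the 19, 14 rose in WT and were not called in KO, among them the complement genes C1qa, C1qb and C1qc, the mannose receptor Mrc1, Apoe and Cd68, and 5 fell in KO and rose in WT. Among all 1136 genes called lower, 848 had the first pattern and 71 the second.

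Cd5l, the secreted scavenger-type protein of tissue macrophages, had the lowest interaction of all called genes. Its levels were 4.64, 5.06 and 4.87 in KO smoke and 6.55, 6.81 and 5.94 in KO air, against 8.06, 7.73 and 7.54 in WT smoke and 6.23, 5.58 and 5.43 in WT air. The 4 groups were separate, with WT smoke highest and KO smoke lowest, except that KO air and WT air overlapped, and its smoke changes were -1.57 ± 0.23 in KO (adjusted p = 0.00205) and 2.03 ± 0.23 in WT (adjusted p = 2.05e-05), which gave -3.60 ± 0.33 (adjusted p = 4.11e-06). Csf1r, the receptor for macrophage colony-stimulating factor, read 10.08, 10.02 and 9.99 in KO smoke and 10.61, 10.58 and 10.57 in KO air, against 10.04, 9.97 and 10.04 in WT smoke and 9.39, 9.32 and 9.37 in WT air. The smoke arrays of both genotypes lay between 9.97 and 10.08, with KO air above and WT air below that range, and the interaction was -1.21 ± 0.08 (adjusted p = 1.98e-07). Adgre1, the gene of a classical macrophage surface marker, the chemokine receptor Cx3cr1 and the Fc receptor chain Fcer1g shared this opposite pattern.

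Other genes of myeloid cells with the lowest interactions lay outside the marker list. Ms4a4a and Ms4a6c, tetraspan membrane proteins of macrophages, had interactions of -2.47 ± 0.19 (adjusted p = 7.3e-07) and -1.97, with smoke changes of -1.0 in KO and 1.46 in WT for the first and -0.89 in KO and 1.08 in WT for the second, all called. The activating Fc receptor Fcgr4 read 9.01, 9.43 and 9.10 in KO smoke and 10.41, 10.48 and 10.42 in KO air, against 8.63, 8.34 and 8.31 in WT smoke and 8.35, 6.85 and 7.10 in WT air. Its KO air arrays were highest and WT air replicate 1 was above the other WT air arrays by over 1 unit, and its interaction was -2.26 ± 0.40 (adjusted p = 0.00137). Adgre4, an adhesion receptor related to Adgre1, read 7.17, 7.31 and 7.21 in KO smoke and 9.58, 9.79 and 9.53 in KO air, against 5.97, 6.01 and 5.63 in WT smoke and 6.01, 6.16 and 6.16 in WT air. KO air stood above all the others, the WT groups overlapped, and the interaction of -2.16 ± 0.15 (adjusted p = 2.17e-07) came from a called fall of 2.40 in KO. The serpin Serpinb10 and the Ly6 family gene Ly6a2 also fell in KO (smoke changes -1.70 and -1.26), with interactions of -2.04 and -2.04, and Ly6a2 rose in WT by 0.78. In WT, Adgre4 lay between 5.63 and 6.16 and Serpinb10 between 5.33 and 6.18, near 6, the limit used below to filter dim genes. The part of these low levels in the missing WT calls was not tested.

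Genes tied to alternative activation of macrophages split. Arg1, arginase, read 8.24, 8.05 and 8.30 in KO smoke and 8.97, 8.77 and 8.17 in KO air, against 10.69, 10.54 and 10.53 in WT smoke and 9.34, 9.17 and 8.74 in WT air. WT smoke was the highest group and the KO groups overlapped, with an interaction of -1.94 ± 0.26 (adjusted p = 0.000131). Retnla, a resistin-like secreted protein, ran opposite with 10.93, 11.15 and 10.94 in KO smoke and 10.07, 9.85 and 9.60 in KO air, against 5.94, 5.74 and 5.87 in WT smoke and 9.15, 9.03 and 9.23 in WT air. Its 4 groups did not overlap, smoke raised it 2.24-fold in KO and lowered it 9.77-fold in WT, and the interaction was 4.45 ± 0.16 (adjusted p = 6.3e-10). Chil3, a chitinase-like protein of alveolar macrophages, was also higher at 2.45 ± 0.20 (adjusted p = 1.13e-06), by a WT fall of 1.99, and its KO change of 0.46 was not called.

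Alveolar macrophage and smoke-macrophage genes were called higher in 9 of 16 (56.2% against 8.89% of all genes) and lower in 3 (18.8% against 5.7%), with a median of 0.77, opposite in sign to that of the general macrophage list. Plet1 had an interaction of 2.06 ± 0.09 (adjusted p = 2.7e-09), and Atp6v0d2, a proton pump subunit, had 1.64 ± 0.14 (adjusted p = 1.62e-06) with smoke changes of 0.44 in KO and -1.20 in WT, both called. Krt79 and the arginine transporter Slc7a2 likewise rose in KO and fell in WT, and Gpnmb, a lysosomal glycoprotein of lipid-laden macrophages, rose in KO by 0.78 and was not called in WT at 0.03. Marco, Mmp12 and Trem2 were the 3 lower members and rose in WT.

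Neutrophil genes had 6 of 25 called lower (24% against 5.7%) and 3 higher (12% against 8.89%), with a median of -0.28. The lectin receptor Clec4e read 6.96, 6.83 and 6.57 in KO smoke and 7.25, 7.52 and 7.34 in KO air, against 8.14, 7.70 and 7.55 in WT smoke and 6.60, 6.20 and 5.70 in WT air. By their means WT smoke was the highest group and WT air the lowest, and the interaction was -2.22 ± 0.28 (adjusted p = 8.97e-05). The amplifying receptor Trem1 followed at -0.97, while the granule protein Ltf and the lipolysis inhibitor G0s2 were higher at 0.70 and 0.66 by a fall in WT. Ltf and Lcn2 are made by airway epithelium as well as neutrophils.

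Several chemokines that recruit neutrophils and monocytes rose with smoke in WT and were not called in KO. Of 34 chemokines measured, 12 were called lower in the interaction (35.3% against 5.7%) and 4 higher (11.8% against 8.89%), with a median of -0.35, and all 12 had this pattern. It was also the pattern of 848 of all 1136 genes called lower. Cxcl2, a ligand of the neutrophil receptor Cxcr2, read 6.87, 6.68 and 6.44 in KO smoke and 7.26, 7.01 and 6.44 in KO air, against 9.18, 8.71 and 8.88 in WT smoke and 7.26, 6.77 and 6.63 in WT air. The 3 WT smoke arrays were above all others and the remaining groups overlapped, with smoke changes of -0.24 ± 0.21 in KO (adjusted p = 0.864) and 2.04 ± 0.21 in WT (adjusted p = 6.5e-06) and an interaction of -2.28 ± 0.29 (adjusted p = 0.0001). Cxcl1 and Cxcl3, ligands of the same receptor, and the monocyte chemokines Ccl2, Ccl7 and Ccl12 were in the same group, although the Ccl2 call was lost without KO smoke replicate 2 or KO air replicate 1 or 2. Ccl3, made by activated macrophages, read 8.43, 8.89 and 8.19 in KO smoke and 8.66, 8.75 and 8.60 in KO air, against 9.56, 9.16 and 9.05 in WT smoke and 8.04, 7.03 and 7.09 in WT air, with WT air replicate 1 above the other WT air arrays, and had an interaction of -2.04 ± 0.34 (adjusted p = 0.000878). Ccl8 had -1.73 ± 0.19 (adjusted p = 2.52e-05).

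The 4 chemokines called higher were of other kinds. Cxcl15, a chemokine of lung epithelium, and Cxcl14 had interactions of 2.63 and 2.12 by a WT fall. Ccl17, which attracts T cells through Ccr4, rose in KO and was not called in WT (0.61 in KO and -0.14 in WT), with levels of 7.83, 7.99 and 7.80 in KO smoke and 7.27, 7.26 and 7.24 in KO air, against 6.75, 7.01 and 6.97 in WT smoke and 7.09, 7.14 and 6.91 in WT air. KO smoke was above all the other arrays and the WT groups overlapped, and the interaction was 0.75 ± 0.12 (adjusted p = 0.000739). Ccl22, the other ligand of Ccr4, had the same pattern with 0.43 in KO and -0.15 in WT.

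Genes of the NF-kB pathway itself had interactions below 1 log2 unit in size, apart from Tnip3. Of 17 subunits, inhibitors and kinases, 6 were called lower (35.3% against 5.7%) and 2 higher (11.8% against 8.89%), with a median of -0.15. Nfkbia, the inhibitor IkB-alpha, which NF-kB induces, read 10.60, 10.54 and 10.60 in KO smoke and 10.75, 10.63 and 10.56 in KO air, against 10.51, 10.47 and 10.45 in WT smoke and 10.05, 9.94 and 9.97 in WT air. WT air was below the other groups, which lay between 10.45 and 10.75, and the interaction was -0.55 ± 0.09 (adjusted p = 0.000841). Tnfaip3, the ubiquitin-editing inhibitor A20, fell in KO and rose in WT (-0.32 in KO and 0.43 in WT) with an interaction of -0.75 ± 0.10 (adjusted p = 0.000118), and the atypical inhibitor Nfkbiz had -0.69. Rel, the c-Rel subunit, fell in KO by 0.38 and was not called in WT, with an interaction of -0.40 ± 0.12 (adjusted p = 0.0424), a call lost in 10 of the 12 settings that left out 1 array. Tnip3, a partner of A20, was the exception at 2.12 ± 0.16 (adjusted p = 8.02e-07): it read 6.69, 6.82 and 6.73 in KO smoke and 6.63, 6.67 and 6.54 in KO air, against 5.86, 6.09 and 5.99 in WT smoke and 8.01, 7.67 and 8.24 in WT air, so WT air was the high group and WT smoke the lowest.

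NF-kB inflammatory target genes were called lower in 13 of 36 (36.1% against 5.7%) and higher in 3 (8.33% against 8.89%), with a median of -0.31. Of the 13, 11 rose in WT and were not called in KO, among them Cxcl2, Ptgs2, Nos2, Il12b and Vcam1, of which Il12b lost its call in 9 of the 12 settings that left out 1 array. For comparison, 848 of all 1136 genes called lower rose in WT and were not called in KO. Tnf, the cytokine that activates NF-kB, read 6.54, 6.53 and 6.67 in KO smoke and 7.07, 7.08 and 6.93 in KO air, against 6.67, 6.78 and 6.75 in WT smoke and 6.46, 6.37 and 6.19 in WT air. KO air was the high group and WT air the low one, both smoke changes were called (-0.44 in KO and 0.39 in WT), and the interaction was -0.84 ± 0.11 (adjusted p = 0.000155). Il1b read 8.21, 8.22 and 8.08 in KO smoke and 8.41, 8.31 and 8.20 in KO air, against 7.94, 7.72 and 7.60 in WT smoke and 7.15, 5.79 and 6.59 in WT air, with WT air spread over more than 1 unit, and had an interaction of -1.38 ± 0.33 (adjusted p = 0.0127). Icam1, the leukocyte adhesion molecule that type I cells and endothelium carry in lung, was higher at 1.81 ± 0.12 (adjusted p = 1.39e-07) with a WT change of -1.88, as was Gadd45b at 0.96.

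The promoter of Cxcl2 is shown because it holds a kappaB-type core, GGGANNTTC, that reads on both strands, so that 2 overlapping matches begin 97 and 95 bases before the start. It is the RefSeq stretch at chr5:90903649-90903898 on the plus strand of GRCm38.p6, 250 bases that end at the base before the start, with the matches in capitals.
Cxcl2: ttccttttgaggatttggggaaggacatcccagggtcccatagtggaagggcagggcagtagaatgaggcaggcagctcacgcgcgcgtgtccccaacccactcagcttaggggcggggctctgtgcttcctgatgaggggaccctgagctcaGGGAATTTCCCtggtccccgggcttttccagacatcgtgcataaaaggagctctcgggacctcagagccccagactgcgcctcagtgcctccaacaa
This core was in 4.3% of the 15613 promoters, in 5.2% of the genes called lower and in 3.9% of those called higher. It was in 4 of the 12 called inflammatory targets with a promoter and in 7 of the 61 genes with a promoter that fell in KO and rose in WT. Among genes that rose in WT and were not called in KO, the pattern of Cxcl2, 26 of 647 held it (4.0%), a share near that of all promoters.

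In interferon-gamma induced genes the interaction came mostly from a fall with smoke in KO. Of 20 measured, 10 were called lower (50% against 5.7%) and 0 higher, with a median of -0.84 and median smoke changes of -0.98 in KO and 0.00 in WT. Of the 10, 8 fell in KO and were not called in WT: Cd274, Ido1, Irf8, Ly6i and the guanylate-binding proteins Gbp2b, Gbp3, Gbp5 and Gbp7. Among all 1136 genes called lower, 97 had this pattern. The Gbp3 call was lost without KO smoke replicate 1 or 3, any 1 KO air array or WT air replicate 3. The list's mean level was 8.49 to 8.88 in KO smoke and 9.47 to 9.48 in KO air, against 7.28 to 7.38 in WT smoke and 7.08 to 7.72 in WT air, so KO air was the high group and KO smoke stayed above both WT groups. WT air replicate 1 stood at 7.72 beside 7.08 in the other WT air arrays, and without it 15 members were called lower.

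Ido1, which degrades tryptophan and restrains T cells, read 6.82, 7.33 and 6.89 in KO smoke and 9.0, 8.95 and 8.95 in KO air, against 5.33, 5.79 and 5.36 in WT smoke and 5.78, 5.84 and 5.36 in WT air. Smoke lowered it 3.88-fold in KO, the WT groups overlapped, and the interaction was -1.79 ± 0.22 (adjusted p = 7.43e-05). All its WT levels lay below 6, the limit used below to filter dim genes. The part of this low level in the missing WT call was not tested. Cd274, the checkpoint ligand PD-L1, read 8.51, 8.86 and 8.73 in KO smoke and 10.04, 10.14 and 9.95 in KO air, against 8.11, 7.84 and 7.86 in WT smoke and 7.87, 7.40 and 7.54 in WT air. KO air was 1.34 above KO smoke, and the interaction was -1.68 ± 0.17 (adjusted p = 1.42e-05). Gbp2b, a GTPase that acts on intracellular pathogens, read 8.53, 8.94 and 8.31 in KO smoke and 9.77, 9.85 and 9.83 in KO air, against 6.63, 6.77 and 6.74 in WT smoke and 6.93, 5.88 and 5.72 in WT air. WT air replicate 1 was above all WT smoke arrays while the other WT air arrays were below them, and the interaction was -1.76 ± 0.35 (adjusted p = 0.00308). Irf8, a transcription factor of interferon signalling and of dendritic cells, had -0.58 ± 0.10 (adjusted p = 0.00133).

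Promoters of Gbp2b and Cd274 are shown because both hold the interferon response core GAAANNGAA once in the 250 bases before the start, on the opposite strand. They lie at chr3:142594597-142594846 and chr19:29367188-29367437 on the plus strand of GRCm38.p6 (RefSeq), and the match is in capitals, 136 bases before the start in Gbp2b and 76 in Cd274.
Gbp2b: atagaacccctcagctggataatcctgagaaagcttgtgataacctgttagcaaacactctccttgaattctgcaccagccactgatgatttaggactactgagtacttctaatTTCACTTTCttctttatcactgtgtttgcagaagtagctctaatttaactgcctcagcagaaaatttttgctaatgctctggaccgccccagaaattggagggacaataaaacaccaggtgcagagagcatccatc
Cd274: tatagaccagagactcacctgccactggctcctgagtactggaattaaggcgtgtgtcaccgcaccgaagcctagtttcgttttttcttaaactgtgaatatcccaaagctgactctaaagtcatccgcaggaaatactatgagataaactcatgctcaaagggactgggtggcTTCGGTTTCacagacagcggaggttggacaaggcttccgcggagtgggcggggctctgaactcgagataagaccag
The core was in 9.2% of the 15613 promoters, 14.1% of the genes called lower, 9.5% of those called higher, and 13 of the 72 genes with a promoter that fell in KO and were not called in WT. It was in 5 of the 6 called interferon-gamma genes with a promoter, and in 0 of the 5 called MHC class I and immunoproteasome genes with a promoter.

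**Figure D4:**
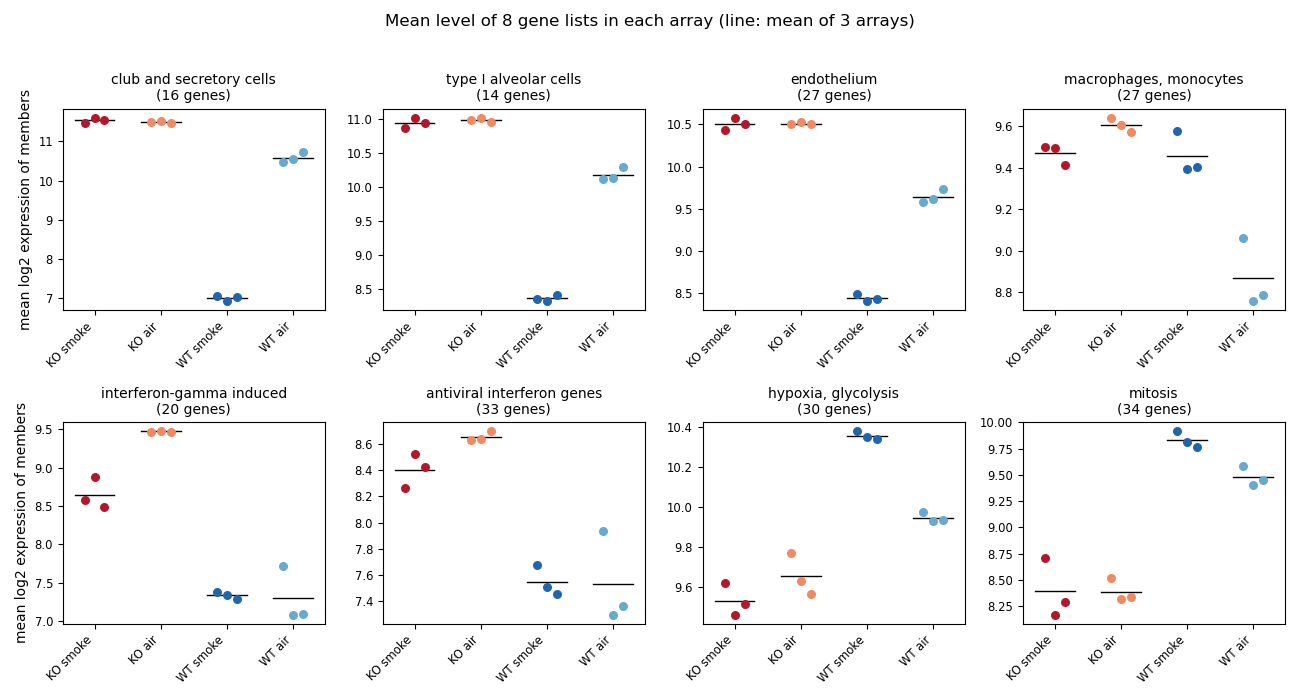
The mean log2 level of 8 gene lists is plotted for each array, with a line at the mean of 3 arrays. Club, type I and endothelial lists are lowest in WT smoke, the macrophage list is lowest in WT air, the interferon-gamma list is at 9.47 to 9.48 in KO air and below 9 in all other groups, and hypoxia and mitotic lists are highest in WT smoke.

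Antigen presentation genes showed the same KO fall in part. Of 14 MHC class I and immunoproteasome genes, 6 were called lower and 0 higher (42.9% against 5.7%), with a median of -0.41. The peptide transporter Tap1 read 9.64, 9.97 and 9.74 in KO smoke and 10.56, 10.59 and 10.58 in KO air, against 8.81, 8.48 and 8.53 in WT smoke and 8.74, 8.17 and 8.31 in WT air, with KO air above KO smoke and the WT groups overlapping, and had an interaction of -0.99 ± 0.19 (adjusted p = 0.00252). Tap2, the immunoproteasome subunit Psmb9 and the nonclassical H2-M3 had -0.54, -0.87 and -1.08. Of 11 MHC class II genes 4 were lower (36.4% against 5.7%) and 1 higher (9.09% against 8.89%), or 2 higher without WT smoke replicate 1 or WT air replicate 2. Ciita, the master activator of class II genes, read 7.57, 7.74 and 7.51 in KO smoke and 8.59, 8.71 and 8.64 in KO air, against 6.79, 6.91 and 6.77 in WT smoke and 6.95, 6.77 and 6.87 in WT air, fell 2.06-fold in KO and had an interaction of -1.0 ± 0.11 (adjusted p = 2.09e-05). H2-Eb2 and the peptide-loading H2-DMa followed at -1.62 and -0.61.

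The class II gene called higher was H2-Ea, with the largest interaction after Cyp1a1. It encodes the I-E alpha chain, and C57BL/6 mice are known to carry a form of the gene that is not transcribed. Its levels were 11.48, 11.55 and 11.52 in KO smoke and 8.89, 8.59 and 9.95 in KO air, against 6.73, 5.51 and 6.41 in WT smoke and 9.47, 9.71 and 9.95 in WT air. KO smoke was the highest group, KO air spread over more than 1 unit and overlapped WT air, and WT smoke was the lowest, with smoke changes of 2.38 in KO and -3.49 in WT and an interaction of 5.87 ± 0.45 (adjusted p = 8.02e-07). Whether all hosts shared 1 H2 background was not tested.

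Antiviral interferon-stimulated genes had 6 of 33 called lower (18.2% against 5.7%) and 2 higher (6.06% against 8.89%), with a median of -0.25. Without WT air replicate 1, the array high in this list, 13 were called lower. Trim12a, a TRIM family gene, read 6.96, 7.06 and 7.01 in KO smoke and 9.77, 9.77 and 9.68 in KO air, against 7.39, 7.24 and 6.95 in WT smoke and 8.35, 8.21 and 8.49 in WT air. Smoke lowered it in both genotypes, 6.64-fold in KO and 2.23-fold in WT, and the interaction was -1.58 ± 0.15 (adjusted p = 4.51e-06). The RNA sensor enzyme Oas2 was lower at -1.12 ± 0.24 (adjusted p = 0.00537) and Epsti1 at -0.74, while Ifit3b was higher at 0.70 by a WT fall.

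Most lymphocyte genes were not called. T and NK cell genes had 4 of 31 lower (12.9% against 5.7%) and 2 higher (6.45% against 8.89%), and without WT smoke replicate 1 the lower count was 7. Perforin, Prf1, read 7.34, 7.56 and 7.74 in KO smoke and 8.27, 8.37 and 8.51 in KO air, against 6.83, 7.17 and 7.19 in WT smoke and 6.73, 7.13 and 6.75 in WT air, fell in KO and had an interaction of -1.03 ± 0.19 (adjusted p = 0.00175), and granzyme B, Gzmb, did likewise at -0.98, a call lost in 9 of the 12 settings that left out 1 array. The transcription factor Eomes was lower at -0.47, and the adhesion molecule Cd2 and the receptor subunit Cd3g were higher at 1.26 and 0.61. Of 19 B and plasma cell genes, 3 were higher (15.8% against 8.89%) and 1 lower (5.26% against 5.7%), with 4 lower without WT smoke replicate 1. The 1 was Jchain, the joining chain of secreted IgA and IgM, with levels of 7.51, 7.02 and 6.75 in KO smoke and 9.40, 9.32 and 9.29 in KO air, against 6.04, 5.66 and 5.86 in WT smoke and 6.25, 5.97 and 6.32 in WT air. Smoke lowered it 4.73-fold in KO, the WT change of -0.33 was not called, and the interaction was -1.91 ± 0.23 (adjusted p = 4.95e-05). Its WT levels lay between 5.66 and 6.32, and the part of this low level was not tested. The B cell genes Ms4a1 and Cd79b fell in both genotypes and by more in WT, with interactions of 1.0 and 0.45, and the B cell factor Ebf1 fell in WT with 1.08. The Cd79b call (adjusted p = 0.0431) was lost in 8 of 20 other settings.

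Dendritic cell genes had 6 of 18 lower (33.3% against 5.7%) and 2 higher (11.1% against 8.89%), which were Ccl17 and Ccl22. Xcr1, the receptor of cross-presenting dendritic cells, read 6.31, 6.34 and 6.41 in KO smoke and 7.06, 6.93 and 7.14 in KO air, against 6.05, 6.23 and 6.35 in WT smoke and 6.15, 6.14 and 5.80 in WT air and had an interaction of -0.87 ± 0.15 (adjusted p = 0.00102), with KO air alone above the other groups. Its WT levels lay between 5.80 and 6.35, and the part of this low level was not tested. The maturation marker Cd83 had -0.76 by a KO fall of 0.53. The number of lower members was 3 without any of KO smoke replicate 3, KO air replicate 1, KO air replicate 3 or WT smoke replicate 3.

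Of 30 hypoxia and glycolysis genes measured, 21 rose with smoke in WT, 3 fell and 6 were not called, while in KO 1 rose, 3 fell and 26 were not called. Over all genes 15% rose and 14% fell in WT, and 0.692% rose and 1.72% fell in KO. In the interaction 20 were called lower in the interaction (66.7% against 5.7%) and 2 higher (6.67% against 8.89%), Vegfa and Stc1, with a median of -0.43 and median smoke changes of -0.09 in KO and 0.42 in WT. The list's mean level was 9.46 to 9.62 in KO smoke and 9.56 to 9.77 in KO air, against 10.34 to 10.38 in WT smoke and 9.93 to 9.97 in WT air. Of the 20, 16 rose in WT and were not called in KO, among them the glucose transporter Slc2a1, the lactate dehydrogenase Ldha, the kinases Pdk1, Pgk1 and Pkm and the carbonic anhydrase Car9. This was the pattern of 848 of all 1136 genes called lower. The Ldha call was lost in 7 and the Pgk1 call in 9 of the 12 settings that left out 1 array. Adm, the vasodilator peptide adrenomedullin, read 8.52, 8.11 and 8.18 in KO smoke and 9.08, 8.87 and 8.53 in KO air, against 10.91, 10.86 and 10.87 in WT smoke and 9.53, 9.68 and 9.67 in WT air. WT smoke was the highest group and KO smoke the lowest, both smoke changes were called (-0.56 in KO and 1.25 in WT) and the interaction was -1.81 ± 0.18 (adjusted p = 9.75e-06). The oxidoreductase Ero1a had -1.19 ± 0.12 (adjusted p = 1.33e-05). Stc1, stanniocalcin, another hypoxia-induced gene, ran opposite at 1.29 ± 0.13 (adjusted p = 1.06e-05): it rose in KO and fell in WT, and its levels in both KO groups were below both WT groups.

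Few proliferation genes passed the test. Of 34 mitotic genes 2 were called lower (5.88% against 5.7%) and 0 higher, a share at the background, although the median was -0.38. The 2 were the kinetochore genes Ndc80 and Cenpf, at -0.56 and -0.57. Mki67, the proliferation antigen, read 9.34, 8.70 and 8.80 in KO smoke and 9.11, 8.87 and 8.85 in KO air, against 10.45, 10.49 and 10.33 in WT smoke and 10.17, 10.03 and 9.96 in WT air. The levels in WT were above those in KO in both exposures, and the interaction of -0.38 ± 0.20 (adjusted p = 0.233) did not pass the test. The mitotic count moved with the setting: it was 24 of 34 without KO smoke replicate 1, where Mki67 was called too, and 1 without KO smoke replicate 2 or 3, KO air replicate 1, WT smoke replicate 2 or WT air replicate 3. With all arrays kept it was 11 with the replicate number as a block, 8 with median centring, 8 with array weights and 5 after quantile normalization. The Cenpf call was lost in the 5 settings that gave 1. Of 37 DNA replication genes 1 was called lower (2.7% against 5.7%), Orc1 of the origin recognition complex at -0.55 (adjusted p = 0.0475), a call lost in 11 of 20 other settings. The replication count was 4 without KO smoke replicate 1, 2 without WT smoke replicate 3 and 0 in 8 of the other settings that left out 1 array. Cyclin D1, Ccnd1, read 11.18, 10.87 and 10.94 in KO smoke and 11.05, 11.00 and 11.00 in KO air, against 11.09, 11.26 and 11.28 in WT smoke and 11.36, 11.14 and 11.09 in WT air and had no called interaction (-0.03 ± 0.13 (adjusted p = 0.898)).

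Myc, the growth regulator and a Wnt target, was called. It read 10.95, 10.31 and 10.42 in KO smoke and 10.62, 10.59 and 10.46 in KO air, against 12.24, 12.11 and 12.12 in WT smoke and 11.44, 11.12 and 11.25 in WT air, with WT smoke above WT air and the KO groups overlapping, and the interaction was -0.88 ± 0.19 (adjusted p = 0.00688). Of 24 genes of the Wnt target list 5 were higher (20.8% against 8.89%) and 2 lower (8.33% against 5.7%). The Wnt inhibitors Nkd1 and Dkk3 and the receptor Tnfrsf19 were higher at 1.33, 1.50 and 0.82, with Axin2 and Wif1, all by a WT fall, and the higher count was 3 without KO smoke replicate 3 or KO air replicate 1 or 2, the settings in which Axin2 and Wif1 both lost their calls. Of 17 p53 target genes 7 were higher (41.2% against 8.89%) and 0 lower, with a median of 0.20. The desmosomal Perp had 1.77 ± 0.12 (adjusted p = 2.87e-07), Trp53inp1 1.03, the antiproliferative Btg2 0.94 and the death receptor Fas 1.05, and 6 of the 7 fell in WT and were not called in KO. So did 1576 of all 1773 genes called higher.

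Smaller regulated groups completed the picture. Of 8 erythroid genes 5 were higher (62.5% against 8.89%) and 0 lower. Alas2, the erythroid enzyme of haem synthesis, read 11.15, 11.36 and 11.30 in KO smoke and 9.89, 10.00 and 9.88 in KO air, against 8.13, 7.79 and 8.14 in WT smoke and 8.84, 8.86 and 8.93 in WT air. Smoke raised it 2.54-fold in KO and lowered it 1.81-fold in WT, the groups did not overlap, and the interaction was 2.20 ± 0.13 (adjusted p = 6.87e-08). Slc4a1, the red cell anion exchanger, rose in both genotypes and by more in KO (1.07 in KO and 0.41 in WT), and Car2 and the transferrin receptor Tfrc were higher at 1.15 and 0.40 by a WT fall.

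Circadian clock genes had 7 of 18 lower (38.9% against 5.7%) and 1 higher (5.56% against 8.89%), which became 4 without WT smoke replicate 1 and 2 without WT air replicate 2. Nr1d1, the repressor REV-ERB alpha, read 8.54, 8.66 and 8.68 in KO smoke and 9.50, 9.60 and 9.61 in KO air, against 8.16, 8.19 and 8.23 in WT smoke and 8.01, 7.92 and 7.73 in WT air. It fell in KO and rose in WT, and the interaction was -1.25 ± 0.11 (adjusted p = 2.53e-06). The repressor Ciart shared that pattern at -1.65 ± 0.21 (adjusted p = 0.000113), Bhlhe40 was lower at -0.89, and Rora, an activator of clock genes, was higher at 0.89 by a WT fall. The hour at which tissue was taken is not given in the labels, so its part in the clock genes was not tested.

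Glucocorticoid and metallothionein genes divided evenly, 6 of 15 higher (40% against 8.89%) and 6 lower (40% against 5.7%). The metal-binding Mt1 and Mt2 were lower at -0.63 and -0.69 by a WT rise, as was the stress gene Ddit4 at -0.70, and the phosphatase Dusp1 was higher at 0.79. Of 20 immediate early genes 4 were lower (20% against 5.7%) and 2 higher (10% against 8.89%). Nr4a1, an orphan nuclear receptor of patrolling monocytes and activated lymphocytes, read 8.89, 9.04 and 8.96 in KO smoke and 10.20, 10.26 and 10.19 in KO air, against 8.45, 8.41 and 8.41 in WT smoke and 8.43, 8.32 and 8.53 in WT air. KO air was the high group and KO smoke lay between it and the WT groups, which overlapped, and the interaction was -1.25 ± 0.10 (adjusted p = 7.78e-07). The stress factor Atf3 fell in KO and rose in WT (-0.50 in KO and 0.53 in WT), with -1.03 ± 0.13 (adjusted p = 8.58e-05).

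Genes with opposite called changes and the smallest p-values were Cyp1a1, Retnla, Scgb3a1, Ptprb, Ccn3 and Tmtc2, all of which rose in KO and fell in WT. Ccn3, a matricellular protein, read 8.20, 8.32 and 8.33 in KO smoke and 7.74, 7.73 and 7.80 in KO air, against 6.28, 6.07 and 6.13 in WT smoke and 7.72, 7.92 and 8.01 in WT air. KO smoke was the high group, WT smoke the low one, and KO air and WT air overlapped, with an interaction of 2.25 ± 0.12 (adjusted p = 1.76e-08). Tmtc2, an enzyme of protein O-mannosylation, read 9.21, 9.43 and 9.26 in KO smoke and 8.93, 8.93 and 8.90 in KO air, against 6.13, 6.16 and 5.92 in WT smoke and 7.92, 7.95 and 8.17 in WT air, with no overlap between groups and an interaction of 2.32 ± 0.13 (adjusted p = 2.59e-08).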

How the data were processed

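The log2 expression values were used as deposited: per the submitters' processing notes, the authors made them in Affymetrix Expression Console with RMA, a background correction followed by quantile normalization and a summary of the probes of each set. The versions of both, and any later filter, are not given in the sources used here. Extraction was with an RNeasy kit and labelling with Affymetrix's whole transcript protocol, per the labels' protocols. Of 34760 probe sets, GEO's platform annotation lists 22961, of which 21640 name 1 gene and 1321 several, and 11799 probe sets are not listed. Each gene took its brightest probe set among those that name 1 gene, which gave 19937 genes. Entrez identifiers of 21553 probe sets were found in a gene table of GRCm38.p6, from which names alone were taken.

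A linear model with 1 mean for each of the 4 groups was fitted to all 12 arrays in limma 3.58.1 (R 4.3.3; 8 residual and 4.83 prior degrees of freedom). Contrasts were the smoke change in KO, the smoke change in WT and their difference. Tests were 2-sided with Benjamini-Hochberg adjustment over all genes, made for each contrast by itself, and a limit of 0.05. The unadjusted p-value needed for a call was therefore smaller in KO, where fewer genes were called, than in WT. Errors after ± are moderated standard errors. A gene "rose" or "fell" where its own smoke contrast passed this limit. The method was tested on simulated data.

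The members, 33 gene lists and settings were chosen with earlier results of these data known, so counts of list members are descriptions with no test of the list. Genes named with values were the 12 highest and 12 lowest called interactions (gene models without a standard name, immunoglobulin, T cell receptor and olfactory genes left out), up to 4 called members of each list by smallest p, the 6 genes with opposite called changes and the smallest p, and a fixed set. A few further list members outside this rule (such as Hmox1, Tiparp, Gpnmb, Gzmb and Ccl22) were added after their values were seen. Promoters came from RefSeq (GRCm38.p6), which held 106 of the 144 named genes, and none from chromosome 18 is shown. Figures were drawn with matplotlib 3.10.9 under Python 3.11.15.

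The alternatives tried were keeping genes that reach 6 on the log2 scale in 3 or more arrays (15007 genes), averaging probe sets per gene, testing probe sets singly, a prior that follows intensity, weights per array, a further quantile normalization, median centring, replicate numbers as blocks, and dropping each array once.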

Additional observations from a re-analysis of the deposited data

Results flagged for a closer look

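The difference in smoke change between the genotypes is itself the comparison of the report, and it was tested by an interaction term. That term passed for 2909 genes, 1773 higher and 1136 lower in KO than in WT. Among the genes that also had called changes of opposite sign in the 2 genotypes, those with the smallest p-values were Cyp1a1 (interaction 7.21), Retnla (4.45), Scgb3a1 (4.04), Tmtc2 (2.32), Ccn3 (2.25) and Ptprb (2.15), in log2 units. Each was higher in all 3 KO smoke arrays than in all 3 KO air arrays and lower in all 3 WT smoke arrays than in all 3 WT air arrays. The genes were picked by these changes in the same arrays, so this separation is a description and adds no support. With 3 arrays in a group, no test for a single outlying array was made.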

How the results depend on the processing

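Of the 2909 calls, 2063 (70.9%) held in all 12 settings that left out 1 array. Over those settings the called genes numbered 2239 to 4969, the higher ones 1483 to 2338, the lower ones 725 to 2631, those that fell in WT alone 1331 to 2014, those that rose in WT alone 497 to 2225, those with opposite changes 61 to 171, and those that changed in KO alone 87 to 184. Array weights gave 6662 calls, 2945 higher and 3717 lower, with 3120 that rose in WT alone, 344 opposite and 300 in KO alone. Genes that rose in WT alone numbered 1360 after quantile normalization and 1890 with median centring, where 2149 genes were called lower. The cause of these moves was not tested. No named gene changed sign past the test under any setting. Of 340 called genes that are list members or named by rule, 301 kept the call in all 20 settings. Of those the text names, the call was lost for Lyz2 in 14 settings, Cyp1a2 in 13, Il12b in 12, Gzmb and Orc1 in 11, Axin2, Pgk1 and Rel in 10, Cd79b and Mmp12 in 8, Ldha in 7, Gbp3 and Krt18 in 6, Cenpf in 5, and Ccl2 and Wif1 in 3. Cyp1a2, Il12b, Eomes and Fap did not pass the filter on dim genes. Nothing in the labels says whether replicate numbers mark pairs or batches, and the values did not decide it. Deviations of the 18 same-numbered pairs of arrays correlated between -0.363 and 0.365, and 7 pairs were over 0.1. Those of differently numbered arrays correlated between -0.588 and 0.491. Replicate 1 was the highest array of each group in the mean of the mitotic genes and of the DNA replication genes. With the replicate number as a block 3020 genes were called (1747 higher, 1273 lower), 11 of them mitotic and 6 DNA replication genes. Array weights called 10 neutrophil, 10 T and NK and 5 B cell genes lower and 4 clock genes higher. The 3 arrays a group, and the labels' silence on separate animals, limit every p-value.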
